A study of Mus musculus with 53 samples.

Results

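Between embryonic days 15.5 and 17.5 the developing mouse cornea was compared on 6 arrays, 3 of E15.5 and 3 of E17.5. They are 6 of the 53 arrays of the series and of the 27 on the Gene ST type, and were chosen by tissue and age in their labels. All 19938 named genes of that array type were tested, each by its brightest probe set. Every sample was whole cornea of wild-type CB6 mice, with no treatment or altered allele, measured as total RNA. Whether arrays came from separate animals, pools or litters is not stated, so every p-value here reflects array-to-array spread alone, and that spread can be technical. The 27 arrays also held cornea at day 14.5 of gestation and at P3, P7, P14 and P28, and lung and trachea at E18.5, 3 arrays each, and these served in the fit to estimate the spread.

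The cornea is the clear front of the eye, built of a stratified epithelium, a collagen-rich stroma laid down by keratocytes of neural crest origin, and an inner endothelium. It is free of vessels, pigment and muscle in the adult, but the limbus, iris and conjunctiva at its rim carry vessels, pericytes and pigment cells, and the eyelids and the muscles that move the eye contain striated muscle. In the embryo the lids close over the cornea, and its epithelium stays thin until after birth. RNA of a whole piece of tissue mixes these sources. Fewer cells of a type and less RNA per cell cannot be told apart in such samples.

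Levels below are quantile-normalized log2(intensity + 16), where 4 stands for an intensity of 0, and a change is the E17.5 mean minus the E15.5 mean on that scale, which understates the change of dim genes. A gene was called at a Benjamini-Hochberg adjusted p under 0.05 over all named genes in limma together with a change of at least 2-fold. This gave 52 genes higher at E17.5 (0.261% of those tested) and 9 lower (0.0451%). Without normalization between arrays the split was 30 higher and 13 lower. The median change of all genes was 0.01, with 10208 genes above 0 and 9730 below. The 3 E17.5 arrays all lay above the 3 E15.5 arrays for 7.21% of genes and all below for 6.44%. Without adjustment, 6.64% of genes were higher and 4.46% lower at a p under 0.05 in limma. Of the 61 called genes, 51 had no such overlap between the ages and 17 belonged to 1 of the 28 gene lists used here.

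Markers of the cornea were high on every array. Keratin 12, the keratin of corneal epithelium, stood at 12.75, 13.37 and 13.37 at E15.5 and at 12.49, 13.17 and 12.26 at E17.5. The stromal proteoglycan keratocan (Kera) stood between 12.72 and 13.07 on all 6. The mean of the 14 corneal epithelium genes was 10.79 for E15.5 and 10.37 for E17.5, against 7.85 to 7.91 on the lung and 8.94 to 9.10 on the trachea arrays. The striated muscle list averaged 7.51 to 7.80 on the lung arrays and 10.78 to 11.46 on the trachea arrays, and the E17.5 cornea mean of 9.54 lay between.

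The 6 arrays did not form 2 tight groups. On the first principal component (42.6% of the variance of the 6 arrays) E17.5 replicates 1 and 3 lay at -29.5 and -30.2, E15.5 replicates 2 and 3 at 29.6 and 29.5, and the remaining arrays between them, E15.5 replicate 1 at -6.92 and E17.5 replicate 2 at 7.46. The SD over genes of the log2 difference between E17.5 replicates 1 and 3 was 0.266, and it was 0.479 and 0.483 between each of them and replicate 2. E17.5 replicate 2 also had 128 probe sets at an intensity of 0, against 40 and 41 on the other E17.5 arrays and 41 to 74 at E15.5. On E15.5 replicate 3 the X-inactivation transcript Xist stood at 12.65, against 5.58 to 8.72 on the other 5 arrays. The Y-linked Kdm5d stood at 6.05 there, against 9.93 to 10.23 on the others. Leaving out single arrays changed the number of called genes from 61 to 298 (without E15.5 replicate 1), 3 (E15.5 replicate 2), 5 (E15.5 replicate 3), 19 (E17.5 replicate 1), 170 (E17.5 replicate 2) and 22 (E17.5 replicate 3). With lung and trachea left out of the fit 1 gene was called. With only the 6 arrays limma called 0, while 228 genes had an unadjusted p under 0.05 and a 2-fold change. The plot of list means by array shows how far single arrays of an age stood apart for each kind of gene.

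**Figure D1:**
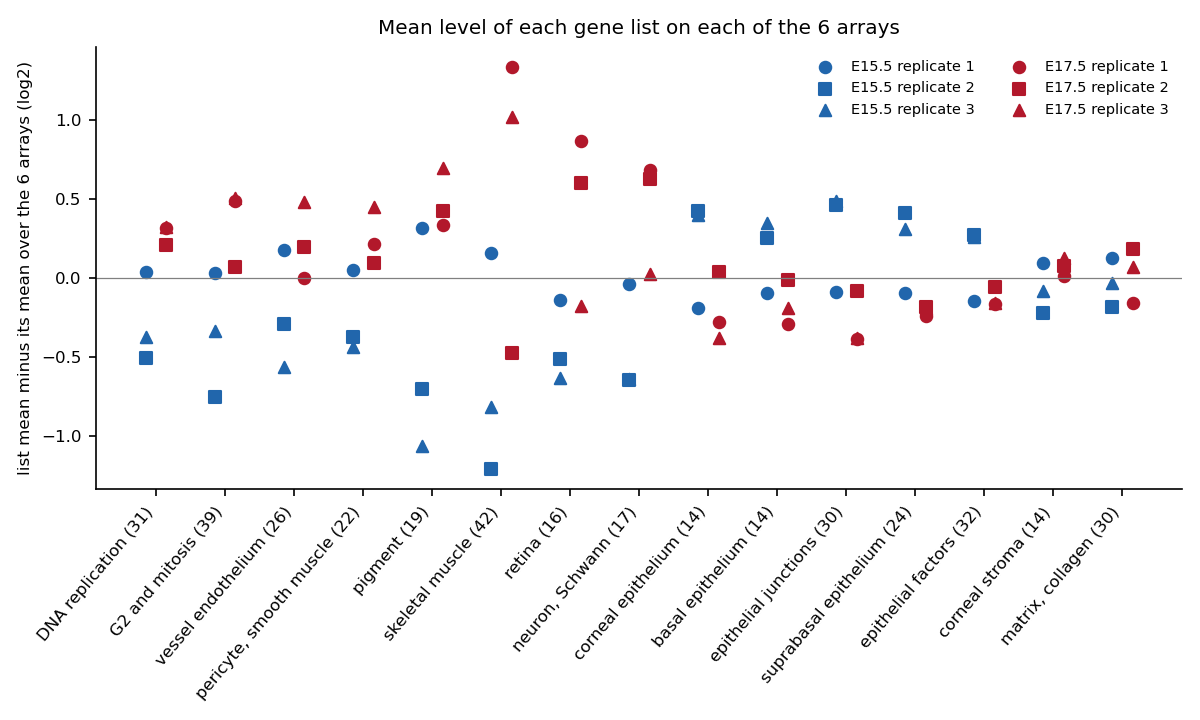
Each point is the mean log2 level of a gene list on 1 array minus the list's mean over the 6 arrays, with E15.5 in blue, E17.5 in red, and circles, squares and triangles for replicates 1, 2 and 3. The number of measured genes is in brackets. Striated muscle was high on E17.5 replicates 1 and 3 (1.33 and 1.02) and low on replicate 2 (-0.48), whereas retina was high on replicates 1 and 2 (0.87 and 0.60) and low on replicate 3 (-0.18).

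Striated muscle genes had the largest median change of the cell type, cell cycle and epithelial lists, and their level differed widely between arrays of 1 age. The list holds myosins, troponins, actins and other sarcomere and calcium-handling genes, and all 42 of its members were measured. Its median change was 1.55, with 38 members above 0, 4 below, and 23 up by at least 2-fold, yet only Mstn and Atp2a1 were called, beside 0.261% of all genes. At an unadjusted p under 0.05 in limma 30 members were higher and 1 lower, beside 6.64% and 4.46% of all genes. The E17.5 arrays all lay above the E15.5 arrays in 9 members and all below in 1, beside 7.21% and 6.44% of all genes. The list mean stood 0.16 above its 6-array mean on E15.5 replicate 1 and 1.21 and 0.82 below it on replicates 2 and 3. At E17.5 it stood 1.33 above on replicate 1, 0.48 below on replicate 2 and 1.02 above on replicate 3. E17.5 replicate 2 thus lay below E15.5 replicate 1, which held for 29 of the 42 members taken singly. Replicate 2 was the lowest E17.5 array for 33 of 42 members, against 30.1% of all genes.

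Several sarcomere genes with large changes show the same order. The slow troponin C gene Tnnc1 stood at 12.23, 8.20 and 9.10 at E15.5 and at 13.77, 10.86 and 13.65 at E17.5, a change of 2.92 that was not called (adjusted p = 0.0739, limma). The embryonic and atrial myosin light chain Myl4 stood at 12.03, 8.25 and 10.28 and then at 14.03, 10.70 and 13.75. In both genes E15.5 replicate 1 exceeded E17.5 replicate 2 by more than 1 log2 unit, so the ages overlapped. Cardiac actin Actc1, expressed in embryonic skeletal muscle too, stood at 12.08, 7.37 and 9.36 and then at 13.05, 10.21 and 13.25 (change 2.57, adjusted p = 0.17, limma). Embryonic myosin Myh3 changed by 2.17 with a standard error of 0.77 (adjusted p = 0.235, limma). The intermediate filament gene desmin (Des) was near 7.4 on E17.5 replicate 2 and on E15.5 replicates 2 and 3, and at 11.02 and 10.94 on E17.5 replicates 1 and 3. The slow troponin I gene Tnni1 did not follow that order and was high on a single array. It stood at 12.87 on E17.5 replicate 1 against 8.09 to 8.78 on the other 5. Other members changed less, with 0.18 for the muscle creatine kinase Ckm and 0.46 for the muscle regulator Myog. Of the 42 members, 4 were lower at E17.5, and the largest fall was that of the myosin Myh2 (-0.38).

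The 2 called members of the muscle list, Mstn and Atp2a1, had standard errors of 0.47 and 0.33, beside a list median of 0.43. Myostatin (Mstn), a secreted inhibitor of muscle growth, stood at 7.36, 5.69 and 6.38 at E15.5 and at 9.72, 7.77 and 8.31 at E17.5, with no overlap (change 2.12 with a standard error of 0.47, adjusted p = 0.0451, limma). The calcium pump of fast fibres, Atp2a1, stood at 8.18, 7.68 and 7.78 and then at 10.52, 8.22 and 9.95 (change 1.68, adjusted p = 0.0255, limma). On E17.5 replicate 2 it barely exceeded E15.5 replicate 1. The titin cap gene Tcap rose by 0.55, under the 2-fold limit, with an adjusted p of 0.0196 in limma. Without E15.5 replicate 1 the fit called 19 members, without E17.5 replicate 2 it called 21, and without any other array 0. The list median ranged from 1.00 to 2.24 over these fits.

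Several called genes outside the list are known from striated muscle and had the same array pattern. They were picked out after their values were seen. The heart and muscle cytochrome oxidase subunit Cox8b stood at 9.78, 7.93 and 7.86 at E15.5 and at 12.50, 9.06 and 12.02 at E17.5 (change 2.67, adjusted p = 0.0353, limma). The M-band protein gene Myom1 stood at 7.97, 7.00 and 7.26 and then at 11.47, 7.59 and 10.87, and the kinase gene Mylk4 at 7.70, 6.90 and 6.91 and then at 10.94, 7.35 and 10.84. In all 3 of these genes E17.5 replicate 2 lay below E15.5 replicate 1, so a call at an adjusted p under 0.05 stood beside an overlap of the ages. The muscle glycogen phosphorylase gene Pygm (1.58) and the glycogen phosphatase subunit Ppp1r3a (1.58) rose with no overlap, as did Mymk, the gene of the fusion protein myomaker (1.34), and phospholamban (Pln, 1.02). The fatty acid carrier Fabp3 (2.02), sarcalumenin (Srl, 1.95), C1qtnf3 (1.92), muscle enolase (Eno3) and Txlnb (1.36) rose with overlap, and Itgb1bp2, known as melusin (1.45), and Sh3bgr (1.26) rose without.

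Muscle levels of the other cornea ages place these values. The list mean was 8.54 at E14.5, 8.29 at E15.5, 9.54 at E17.5 and 7.40 to 7.76 from P3 to P28. When the muscle list mean of each array entered the fit as a covariate over the 21 cornea arrays, 2 genes were called. Akap5 was the only 1 of the 61 genes called above that remained called. The other was the giant sarcomere protein titin (Ttn), which stood at 11.05, 7.34 and 8.45 and then at 12.76, 8.26 and 11.95 (change 2.04, adjusted p = 0.3, limma). Its value with the covariate, -1.12, is relative to the mean of a list that contains it. The muscle list median was 0.12 there, as the construction of that fit implies. Myh3 changed by -0.89 there. Of 35 promoter windows found for 31 muscle list genes in the RefSeq table (GRCm38.p6, the 250 bases before the start, both strands), 4 held a CArG box, the site bound by serum response factor, or 11.4% against 1.47% of all 32851 windows. Shares in the other lists ran from 0% to 33.3%. The highest was that of the corneal epithelium list (3 of 9 windows), so a raised share was not particular to muscle.

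**Figure D2:**
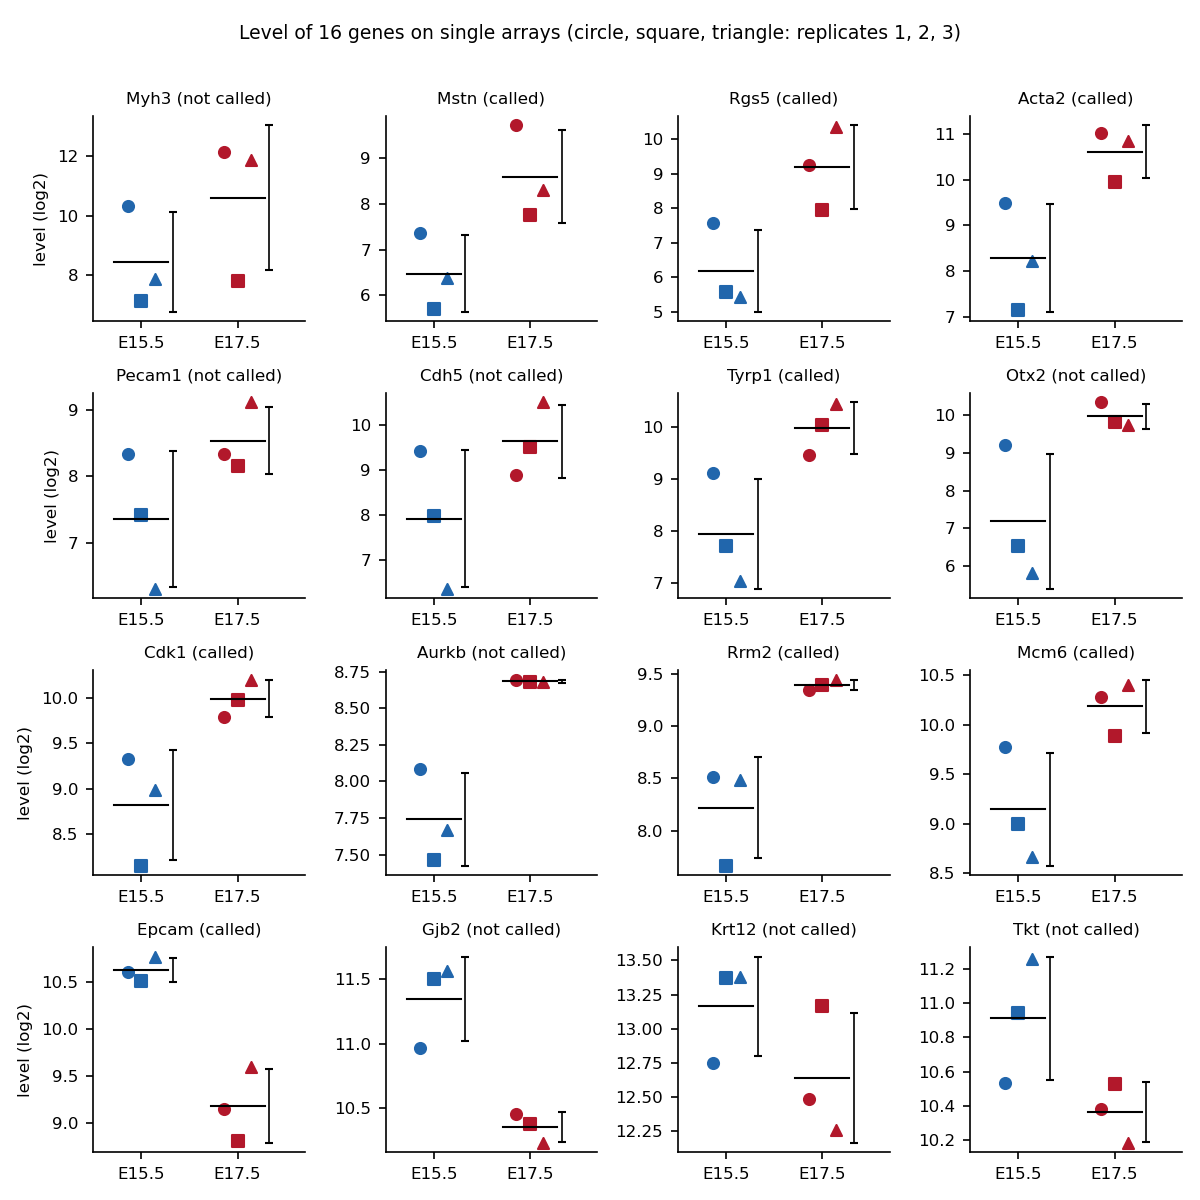
Levels (log2) of single genes on each array, with E15.5 in blue and E17.5 in red, circles, squares and triangles for replicates 1, 2 and 3, a line at the group mean and a bar of 1 SD each way (n = 3 arrays). The vertical axes differ and do not start at 0. Myh3 overlapped between the ages through E17.5 replicate 2 at 7.81 and E15.5 replicate 1 at 10.32, while Rrm2, Aurkb and Epcam had no overlap.

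Pericytes and smooth muscle cells wrap small vessels. Of the 22 measured genes of that list, Rgs5 and Acta2 were called higher, beside 0.261% of all genes. The E17.5 arrays all lay above the E15.5 arrays in 7 members and all below in 2, beside 7.21% and 6.44% of all genes. At an unadjusted p under 0.05 in limma 7 members were higher and 1 lower, beside 6.64% and 4.46% of all genes. Rgs5, a regulator of G protein signalling that marks pericytes, stood at 7.56, 5.57 and 5.44 at E15.5 and at 9.26, 7.94 and 10.36 at E17.5. The change of 2.99, with a standard error of 0.62, equalled 7.97-fold and was the largest of any called gene (adjusted p = 0.0333, limma). Smooth muscle actin (Acta2) stood at 9.49, 7.15 and 8.22 and then at 11.03, 9.95 and 10.86, with a 95% interval of the change from 1.35 to 3.29. Both stayed above every E15.5 array on E17.5 replicate 2. With the muscle list mean as a covariate over the 21 cornea arrays neither was called, with changes of 1.36 for Rgs5 (adjusted p = 0.409, limma) and 1.02 for Acta2 (adjusted p = 0.369, limma). Other members were not called. Abcc9 and Kcnj8, the subunits of the vascular potassium channel, changed by 0.90 and 0.54, and the contractile genes Myl9 and Tagln by 0.76 and 0.56. Ndufa4l2 stood at 10.09, 11.08 and 11.32 and then at 9.52, 10.13 and 9.44 (adjusted p = 0.125, limma), lower by 1.13 on the log2 scale. The list median was 0.25, with 17 members above 0 and 5 below. Without E15.5 replicate 1 the fit called 3 members higher and 1 lower, without E17.5 replicate 2 it called 3 higher, and without any other array 0.

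None of the 26 genes of vessel endothelium was called, though 11 were higher at an unadjusted p under 0.05 in limma, beside 6.64% of all genes. In 21 members the change was above 0 and in 5 below, with a median of 0.26. VE-cadherin (Cdh5), which joins endothelial cells, stood at 9.43, 8.00 and 6.37 at E15.5 and at 8.90, 9.53 and 10.51 at E17.5 (change 1.71, standard error 0.65, adjusted p = 0.282, limma). The endothelial sialomucin endomucin (Emcn) stood at 9.45, 7.48 and 6.43 and then at 9.14, 8.65 and 10.57. The adhesion molecule Pecam1 stood at 8.35, 7.42 and 6.31 and then at 8.34, 8.16 and 9.11, with a 95% interval from 0.26 to 2.10. In all 3 genes E15.5 replicate 1 lay among the E17.5 values, and E15.5 replicate 3 and E17.5 replicate 3 were the extremes. The angiopoietin receptor Tek (1.14), Cd34 (1.43) and the VEGF receptor Flt1 (0.94) had changes of similar size that were not called. These are among the largest changes of the list. Other endothelial genes changed little, with 0.26 for Tie1, -0.05 for Kdr, -0.22 for Erg and -0.01 for Ecscr. Only 2 members had no overlap, a share close to the 7.21% of all genes. The vascular phosphatase Ptprb was among them, at 7.56, 7.03 and 6.71 and then at 7.69, 7.72 and 8.71 (adjusted p = 0.054, limma). Vessel genes were not ordered like muscle genes within E17.5, since replicate 2 was the lowest E17.5 array for 6 of 26 members. Without E15.5 replicate 1 the fit called 6 members, without E17.5 replicate 2 it called 1, and without any other array 0. The called genes Ramp3 and Igfbp3, outside the lists, are known from vessels or growth factor binding and were picked after their values were seen. Ramp3, a partner of the receptor for the vessel peptide adrenomedullin, stood at 7.68, 7.41 and 7.41 and then at 8.15, 8.49 and 9.26. Igfbp3, which binds insulin-like growth factors, stood at 8.51, 6.81 and 6.73 and then at 9.92, 8.95 and 10.42 (change 2.41, adjusted p = 0.0268, limma).

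Pigment genes make melanin in melanocytes and in the pigment epithelium of iris and retina. All 19 measured members had changes above 0, with a median of 0.58 and 8 of at least 2-fold. Tyrp1 was called higher, beside 0.261% of all genes. Tyrp1, an enzyme of melanin synthesis, stood at 9.12, 7.71 and 7.04 at E15.5 and at 9.47, 10.04 and 10.45 at E17.5, with no overlap (change 2.03 with a standard error of 0.44, adjusted p = 0.0392, limma). Its 95% interval ran from 1.13 to 2.93, and with the muscle covariate it changed by 1.61 and was not called (adjusted p = 0.281, limma). The window before its start holds the letters TCATGTG, the M-box that the pigment cell regulator MITF is known to bind, and it is shown for that reason, with the box in capitals (GRCm38.p6, chr4:80834113-80834212, plus strand).
Tyrp1: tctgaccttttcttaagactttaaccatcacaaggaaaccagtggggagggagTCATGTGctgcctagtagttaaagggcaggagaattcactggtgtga
Of 21 such windows of 250 bases for 13 pigment genes, 5 held TCATGTG on either strand, 23.8% against 3.25% of all windows. Some genes thus gave more than 1 window. Shares in the other lists ran from 0% to 12.5% (immune genes).

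The other pigment genes were less even. Dct, which acts beside Tyrp1 in melanin synthesis, stood at 10.98, 8.94 and 6.87 at E15.5 and at 10.82, 11.58 and 11.96 at E17.5 (change 2.52, adjusted p = 0.097, limma). Tyrosinase (Tyr) stood at 8.90, 7.24 and 6.36 and then at 8.85, 8.94 and 9.74, and the melanosome fibre gene Pmel at 11.12, 9.98 and 8.51 and then at 11.03, 10.68 and 11.82. In these 3 genes E15.5 replicate 1 was as high as some E17.5 arrays. The melanocyte antigen Mlana stood at 10.60, 8.63 and 8.01 and then at 10.59, 10.99 and 11.30 (change 1.88, adjusted p = 0.0558, limma). Otx2, a transcription factor of pigment epithelium and neural retina, stood at 9.21, 6.53 and 5.81 and then at 10.34, 9.82 and 9.74, a change of 2.78 with no overlap that was not called (adjusted p = 0.0823, limma). Transthyretin (Ttr), made by pigment epithelium of the eye, stood at 9.10, 5.90 and 6.44 and then at 9.43, 7.44 and 9.84. E15.5 replicate 1 was the highest E15.5 array for 17 of the 19 members, against 31.1% of all genes, and E17.5 replicate 2 was the lowest E17.5 array for 4. Without E15.5 replicate 1 the fit called 9 members, without E17.5 replicates 1 or 2 it called 1, and without any other array 0. The list mean at the other ages was 8.31 at E14.5, 8.82 at P3 and 7.71 to 8.12 from P7 to P28, against 7.99 at E15.5 and 8.95 at E17.5.

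Neural genes had changes above 3 log2 units and no call, with 5 retina and 7 neuron or Schwann cell genes higher at an unadjusted p under 0.05 in limma, beside 6.64% of all genes. The synaptic vesicle fusion gene Snap25 stood at 8.41, 6.73 and 6.68 at E15.5 and at 10.95, 11.33 and 9.33 at E17.5, a change of 3.27 with a standard error of 0.77 (adjusted p = 0.054, limma). Stmn2, a tubulin-binding protein of growing axons, stood at 8.44, 6.64 and 6.02 and then at 11.01, 10.81 and 8.41, and neuronal tubulin (Tubb3) at 9.76, 7.80 and 7.52 and then at 11.75, 11.36 and 9.64. E17.5 replicate 3 was the lowest E17.5 array in all 3. It was also lowest for 12 of 17 neuron and Schwann cell genes and 14 of 16 retina genes, beside 5936 of all 19938 genes. Six6, a factor of the optic cup, stood at 6.85, 6.71 and 6.36 and then at 9.54, 9.08 and 7.56 (change 2.09, adjusted p = 0.0839, limma). Neurod4 (2.30) and Neurod1 (2.17), which drive neuron formation in the retina, and the neurofilaments Nefm (2.14) and Nefl (2.02) were not called either. The photoreceptor genes Crx, Nrl, Rcvrn and Arr3 changed by 0.02 to 0.25, Pde6g by 0.02 and Opn1sw by 0.26. Others of that cell type rose more, Pdc by 0.73 and Gngt1 by 1.43. Gngt1 had no overlap between the ages but was not called (adjusted p = 0.37, limma). The medians were 0.25 for the retina list, with 15 of 16 members above 0, and 0.52 for neurons and Schwann cells, with 12 of 17. The arrays with high neural genes (E17.5 replicates 1 and 2) were not those with high muscle genes (replicates 1 and 3). Without E15.5 replicate 1 the fit called 1 retina and 6 neuron genes, without E17.5 replicate 3 it called 1 and 2, and without any other array 0.

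**Figure D3:**
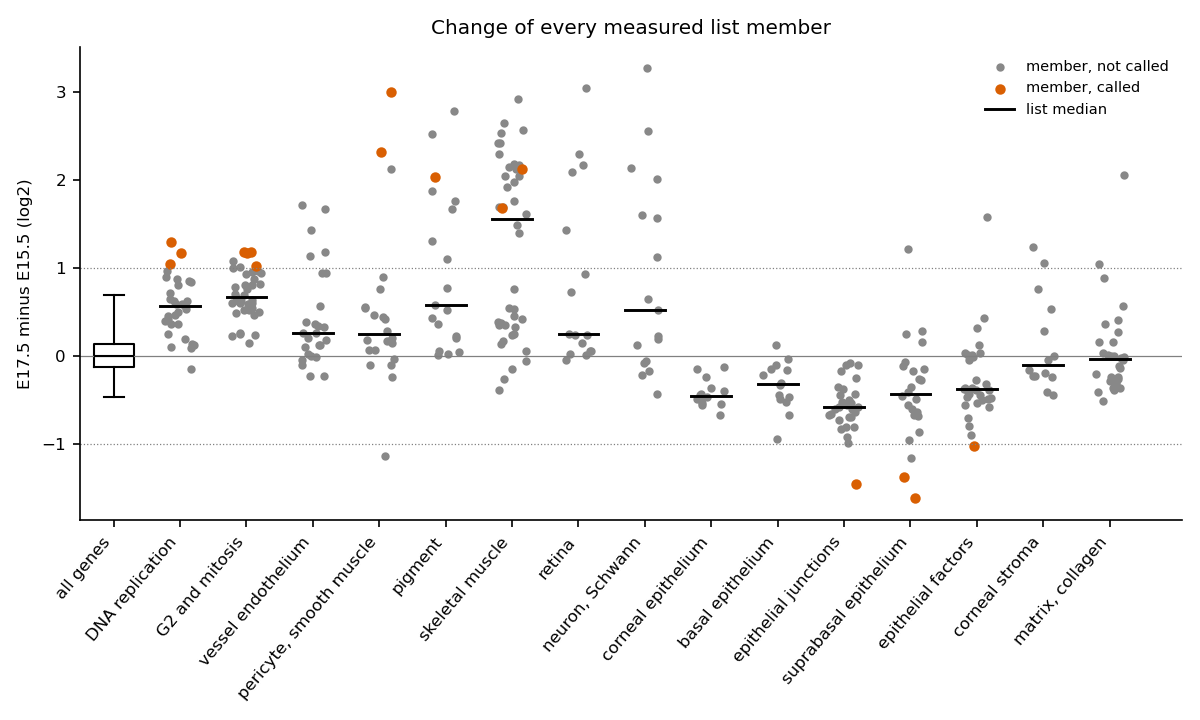
The change from E15.5 to E17.5 (log2) of every measured member of each list, with called members in orange, the list median as a bar, and a box for all genes whose whiskers enclose all but the extreme tails. Dotted lines mark 2-fold. Cell cycle members form a tight cloud with medians of 0.57 and 0.68, muscle members spread widely around 1.55, and epithelial members lie mostly below 0.

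Cell cycle genes shifted by a smaller and more even amount. The 2 lists used were one of DNA replication with 31 of 32 genes measured and one of G2 phase and mitosis with 39 of 40. Of the replication genes 30 had changes above 0 and 19 had no overlap between the ages (all upward), with a median of 0.57, and 3 were called. Of the mitotic genes all 39 had changes above 0 and 21 had no overlap, with a median of 0.68, and 4 were called. Without the fold limit the called numbers were 4 and 7. The background shares are 0.261% called higher and 7.21% without overlap among all genes.

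Among replication genes Rrm2, a subunit of the reductase that makes deoxyribonucleotides, had 3 nearly equal E17.5 values. It stood at 8.52, 7.67 and 8.49 at E15.5 and at 9.35, 9.39 and 9.44 at E17.5 (change 1.17 with a standard error of 0.19, adjusted p = 0.0108, limma), and it was called in 5 of the 6 fits with 1 array left out. The helicase subunit Mcm6 stood at 9.78, 9.00 and 8.66 and then at 10.28, 9.88 and 10.40 (change 1.04, adjusted p = 0.0254, limma). The origin licensing factor Cdc6 stood at 7.84, 6.28 and 6.08 and then at 8.20, 8.18 and 7.70 (change 1.29, adjusted p = 0.0476, limma), so that E17.5 replicate 3 lay below E15.5 replicate 1. Thymidylate synthase (Tyms) rose by 0.81, under the 2-fold limit (adjusted p = 0.0353, limma). Cyclin E2 (Ccne2, 0.97), Gins1 (0.90), Rrm1 (0.88), Uhrf1 (0.85) and Rfc4 (0.85), which serve the start and progress of replication, were not called.

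Of the mitotic genes Cdk1, Ccnb2, Pbk and Ttk were called higher. Cdk1, the kinase that drives entry into mitosis, stood at 9.33, 8.14 and 8.98 at E15.5 and at 9.79, 9.98 and 10.21 at E17.5 (change 1.18 with a standard error of 0.24, 95% interval 0.69 to 1.67, adjusted p = 0.0265, limma). Cyclin B2 (Ccnb2), its partner, stood at 9.37, 8.03 and 8.99 and then at 10.08, 9.86 and 9.96. The mitotic kinase Pbk stood at 8.42, 7.70 and 7.40 and then at 9.03, 9.10 and 8.94, and the spindle checkpoint kinase Ttk at 7.83, 6.90 and 8.11 and then at 8.81, 8.28 and 8.83. In all 4 every E17.5 array lay above every E15.5 array. Aurora kinase B (Aurkb), needed to separate chromosomes, stood at 8.09, 7.46 and 7.67 and then at 8.70, 8.68 and 8.68, a rise of 0.94 just under 2-fold with an adjusted p of 0.0108 in limma. Birc5 (0.88) and cyclin A2 (Ccna2, 0.82) rose likewise under the limit. The proliferation marker Mki67 stood at 9.58, 8.68 and 9.19 and then at 10.22, 9.64 and 10.02 (change 0.81, 95% interval 0.42 to 1.20, adjusted p = 0.0532, limma).

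Since nearly all genes of the 2 cell cycle lists had changes of 1 sign, their promoters are of interest, and the promoters of many such genes are known to hold CCAAT boxes bound by the factor NF-Y and, in mitotic genes, the element TTTGAA, known as the CHR. The last 100 bases before the start are shown for 3 of the mitotic genes that rose and for Rrm2, from the RefSeq table of GRCm38.p6, with CCAAT (or ATTGG, its other strand) and TTTGAA in capitals. Their positions are chr10:69352913-69353012 (minus strand) for Cdk1, chr9:70421555-70421654 (minus) for Ccnb2, chr9:83834589-83834688 (plus) for Ttk and chr12:24708154-24708253 (plus) for Rrm2.
Cdk1: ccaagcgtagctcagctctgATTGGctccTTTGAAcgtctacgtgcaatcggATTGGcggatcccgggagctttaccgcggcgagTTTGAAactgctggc
Ccnb2: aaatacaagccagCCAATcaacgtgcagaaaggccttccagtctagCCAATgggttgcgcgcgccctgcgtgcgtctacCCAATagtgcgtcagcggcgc
Ttk: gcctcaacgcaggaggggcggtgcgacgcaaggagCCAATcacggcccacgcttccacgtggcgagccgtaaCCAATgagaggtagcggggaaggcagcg
Rrm2: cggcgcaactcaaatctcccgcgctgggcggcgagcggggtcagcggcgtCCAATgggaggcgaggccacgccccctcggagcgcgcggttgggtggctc
Over windows of 250 bases and both strands, CCAAT was found in 24 of 33 windows of 31 mitotic genes (72.7%) and 18 of 33 windows of 26 replication genes (54.5%), against 33.8% of all 32851 windows. TTTGAA was found in 13 of the 33 mitotic windows (39.4%) and in 4 of the 33 replication windows (12.1%), against 16% of all windows. In lists outside the cell cycle CCAAT shares ran from 11.1% (corneal epithelium) to 70% (circadian clock genes, median change -0.01). TTTGAA shares ran from 0% (corneal epithelium) to 40% (corneal endothelium and neural crest, median change 0.03). Similar shares thus occurred in lists without a shared shift. The marked letters do not overlap each other in the stretches shown, and a match describes the sequence only.

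The arrays were ordered differently for cell cycle than for muscle genes. The mean of the replication list relative to its 6-array mean was 0.04, -0.51 and -0.37 at E15.5, then 0.31, 0.21 and 0.32 at E17.5, and that of the mitotic list was 0.03, -0.75 and -0.34 and then 0.49, 0.07 and 0.51. The 3 E17.5 arrays were thus all above the 3 E15.5 arrays in both lists, narrowly in the mitotic one. E17.5 replicate 2, low in muscle genes, was above every E15.5 array for 23 of 31 replication and 22 of 39 mitotic genes, against 12 of 42 muscle genes and 44.2% of all genes. E15.5 replicate 1 was the highest E15.5 array for 28 and 34 of them. Without it the fit called 8 replication and 15 mitotic genes, and without E17.5 replicate 2 it called 3 and 10. Without E15.5 replicate 2 it called 0 and 0, without E15.5 replicate 3 it called 1 and 0, and without E17.5 replicate 1 or 3 it called 1 and 1. With the muscle list mean as a covariate over the 21 cornea arrays the medians were 0.44 and 0.35, and no member was called.

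Of the 7 ages, E15.5 had the lowest mean in 25 of 31 replication and 37 of 39 mitotic genes, against 9.73% of all genes. The replication list averaged 9.81 at E14.5, 8.51 at E15.5, 9.07 at E17.5 and 8.88 to 9.14 from P3 to P28, and the mitotic list 10.18, 8.41, 9.12 and 9.06 to 9.30. Rrm2 had means of 10.60, 8.22 and 9.39 at the 3 embryonic ages and of 9.39 to 9.93 afterwards. Cdk1 had 10.78, 8.82 and 9.99 and then 9.53 to 9.84. In these genes and lists the E17.5 values lay within or near the later range. The E14.5 arrays also differed in tissue markers, with lens and erythroid list means of 10.77 and 10.12 against 7.70 and 7.49 at E15.5. Called genes outside the lists, picked after their values were seen, included further mitotic genes. The cell cycle phosphatase Cdkn3 stood at 7.87, 6.84 and 7.77 and then at 8.68, 8.44 and 8.99, and the centromere gene Cenpw at 7.30, 6.89 and 6.49 and then at 8.27, 7.97 and 8.03. The checkpoint gene Kntc1 (1.02) and the repair gene Rad54b (1.01) rose as well. Replication-dependent histone genes rose by 1.02 to 1.13, among them H4c6 and H2bc14, but such genes have near-identical copies that probes may not separate. Of 13 measured genes of cell cycle exit none was called (2 higher at an unadjusted p under 0.05 in limma, beside 6.64% of all genes), and their median was 0.11.

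**Figure D4:**
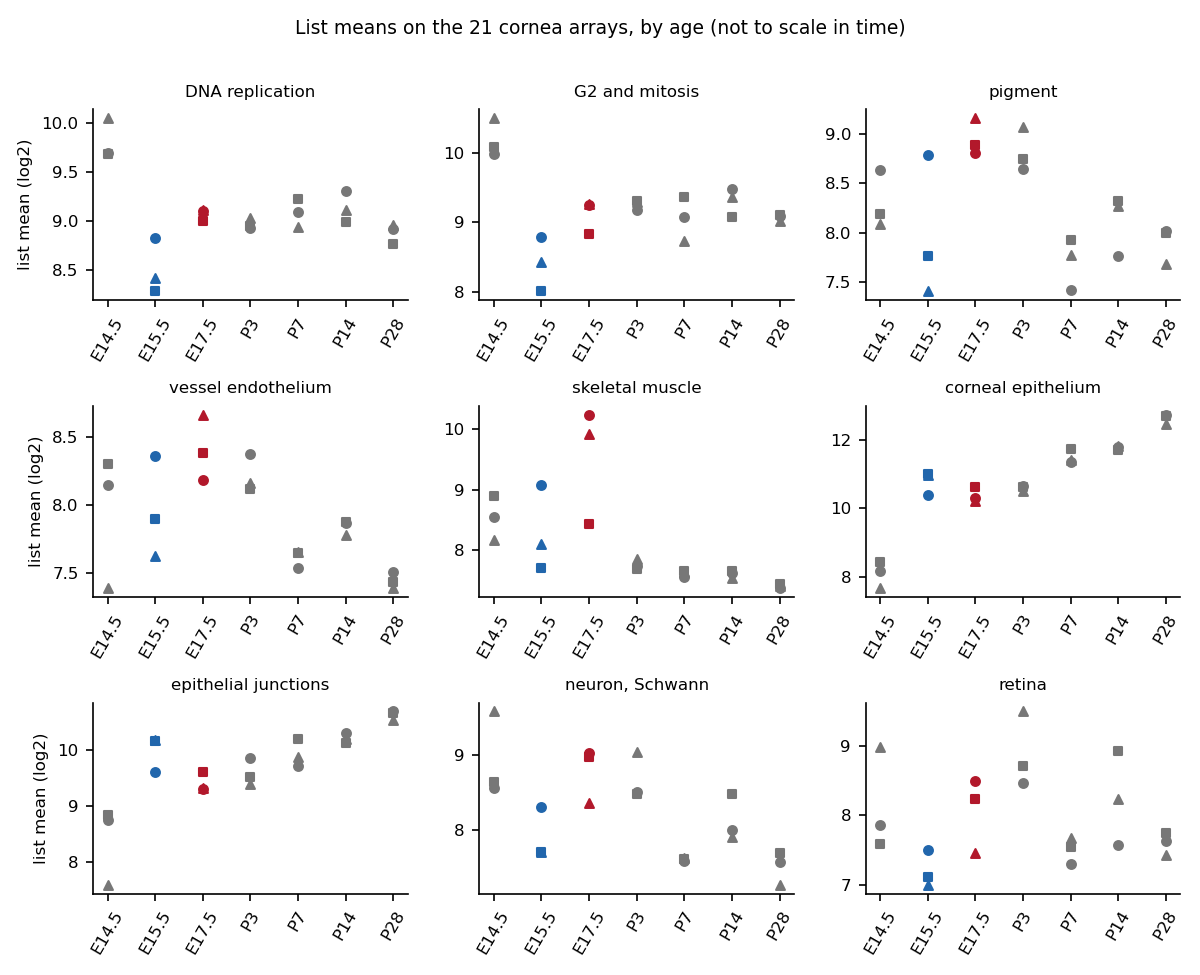
Mean log2 level of 9 lists on each of the 21 cornea arrays at 7 ages, with E15.5 in blue, E17.5 in red, other ages in grey, and circles, squares and triangles for replicates 1, 2 and 3. Ages are evenly spaced and not to scale. Cell cycle lists were lowest at E15.5 (means 8.51 and 8.41), whereas the corneal epithelium list was at 10.79 and 10.37 at the 2 ages between 8.08 at E14.5 and 12.63 at P28.

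Epithelial lists had medians below 0, and 4 of their genes were called lower. Of the 14 corneal epithelium genes all changed downward by some amount, with a median of -0.45, but none was called, 3 were lower at an unadjusted p under 0.05 in limma, beside 4.46% of all genes, and 2 had no overlap, beside 6.44%. Krt12, given above, changed by -0.53 with a standard error of 0.22 (95% interval -0.98 to -0.07, adjusted p = 0.348, limma), and its E17.5 replicate 2 at 13.17 lay above E15.5 replicate 1. Aldh3a1, a dehydrogenase and major soluble protein of the cornea, stood at 9.75, 10.14 and 10.46 and then at 9.74, 10.06 and 9.24 (95% interval -0.80 to -0.08). Pax6, the regulator of eye development, stood at 11.40, 12.15 and 12.10 and then at 11.56, 11.65 and 11.15 (95% interval -0.93 to 0.07). The 2 members without overlap were Klf4, a factor of epithelial differentiation, at 8.92, 9.12 and 9.23 and then at 8.62, 8.41 and 8.80, and transketolase (Tkt), at 10.54, 10.94 and 11.26 and then at 10.38, 10.53 and 10.18 (change -0.55, adjusted p = 0.136, limma). Ehf changed by -0.36. These values were small beside the range of the same list with age, whose mean was 8.08 at E14.5 and 12.63 at P28. The E14.5 mean comes from arrays that were also high in lens and erythroid genes, as given above.

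Basal keratinocytes anchor the epithelium to its basement membrane. None of the 14 measured basal genes was called, and their median was -0.32. At an unadjusted p under 0.05 in limma 2 were lower, beside 4.46% of all genes. Krt5 stood at 13.22, 13.59 and 13.47 at E15.5 and at 12.85, 13.22 and 12.77 at E17.5 (95% interval -1.37 to 0.41). Krt14, its partner keratin, stood at 11.23, 11.95 and 12.10 and then at 10.81, 11.40 and 11.06. Krt14 overlapped through E15.5 replicate 1, and Krt5 had E17.5 replicate 2 at the level of the lowest E15.5 array. The laminin chain Lama3 stood at 9.26, 10.13 and 10.08 and then at 8.89, 8.92 and 8.86 (change -0.94, adjusted p = 0.26, limma), with no overlap. The hemidesmosome collagen Col17a1 (-0.52) and the basal cell factor Trp63 (-0.46) were not called.

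Epithelial junctions had the lowest median of the epithelial lists, -0.58, and all 30 measured members changed downward by some amount. Of these 11 had no overlap, beside 6.44% of all genes, and 1 was called lower, beside 0.0451% of all genes. Epcam, an adhesion molecule of simple and immature epithelia, stood at 10.61, 10.52 and 10.77 at E15.5 and at 9.15, 8.81 and 9.60 at E17.5, a fall of 1.45 on the log2 scale (2.72-fold) with a standard error of 0.31 (adjusted p = 0.0353, limma). The 3 E15.5 arrays lay close together and every E17.5 array was below them. E-cadherin (Cdh1) stood at 10.52, 11.12 and 11.11 and then at 10.10, 10.66 and 10.24 (change -0.58, 95% interval -1.39 to 0.23, adjusted p = 0.654, limma). The gap junction gene connexin 26 (Gjb2) stood at 10.97, 11.50 and 11.56 and then at 10.46, 10.38 and 10.23 (change -0.99, standard error 0.35, adjusted p = 0.224, limma). Its ages did not overlap. The claudin Cldn23 (-0.91), the desmosome and cornified envelope linkers Ppl (-0.83) and Dsp (-0.80), occludin (Ocln, -0.80) and the epithelial splicing factor Esrp2 (-0.72) were not called. The fit without E15.5 replicate 1 called 2 members, that without E17.5 replicate 3 called 1, and the others 0, with medians from -0.79 to -0.47.

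Suprabasal genes act in the upper layers of stratified epithelia. Capns2 and Csta1 were called lower among 24 measured members, beside 0.0451% of all genes. The list median was -0.43 with 20 members below 0. Without overlap 6 members were lower and 1 higher, beside 6.44% and 7.21% of all genes. At an unadjusted p under 0.05 in limma 7 were lower and 0 higher, beside 4.46% and 6.64% of all genes. Capns2, a small calpain subunit, stood at 9.43, 9.75 and 10.33 at E15.5 and at 8.73, 7.50 and 8.45 at E17.5, a fall of 1.61 on the log2 scale (3.06-fold, standard error 0.32, adjusted p = 0.0265, limma). Csta1, a cysteine protease inhibitor of the stefin family, stood at 9.24, 10.05 and 9.64 and then at 8.81, 7.68 and 8.33 (adjusted p = 0.0444, limma). Stefin genes have close copies in the mouse genome, so this value may include them. In both genes E17.5 replicate 2 was the lowest of the 6 arrays. In the corneal list it was the highest E17.5 array for 12 of 14 genes, beside 10760 of all 19938 genes. Suprabasin (Sbsn) fell by 0.86 (adjusted p = 0.0196, limma) and dermokine (Dmkn) by 0.63 (adjusted p = 0.0493, limma), both under the 2-fold limit. Krtdap, a secreted keratinocyte protein, stood at 10.57, 10.70 and 10.86 and then at 9.73, 9.69 and 9.27 (adjusted p = 0.0812, limma). Keratin 4, of mucosal epithelia, went against the list, at 6.62, 6.19 and 6.06 and then at 7.01, 6.98 and 8.53 (adjusted p = 0.541, limma). Of 21 genes of the cornified epidermis none was called, and their median was -0.05. At an unadjusted p under 0.05 in limma 1 of these was higher and 1 lower, beside 6.64% and 4.46% of all genes. Leaving out E15.5 replicate 1 gave 3 called suprabasal members, leaving out E17.5 replicate 1 gave 2, and leaving out any other array gave 0.

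Among 32 measured epithelial transcription factors 1 was called lower, beside 0.0451% of all genes. By some amount 9 changed upward and 23 downward, and the median was -0.38. At an unadjusted p under 0.05 in limma 2 were higher and 6 lower, beside 6.64% and 4.46% of all genes. Bcl6, a zinc finger repressor, stood at 9.09, 9.85 and 10.03 at E15.5 and at 8.61, 8.63 and 8.67 at E17.5 (change -1.02, adjusted p = 0.0493, limma). It was called in 1 of the 6 fits with 1 array left out, the one without E15.5 replicate 1. Tfap2a, an early ectodermal factor, stood at 9.67, 10.64 and 10.39 and then at 9.59, 8.83 and 9.61 (change -0.89). Zfp750 (-0.79) and Grhl3 (-0.70), which act in barrier formation, were not called. Prdm1, a zinc finger repressor known from terminal differentiation, stood at 7.08, 6.08 and 6.63 and then at 8.74, 8.39 and 7.40 (change 1.58, adjusted p = 0.24, limma).

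Within E15.5 the order of the arrays in the epithelial lists was opposite to that in the muscle list, with replicate 1 lowest in place of highest. The corneal list mean relative to its 6-array mean was -0.19, 0.42 and 0.39 at E15.5, then -0.28, 0.03 and -0.38 at E17.5, and the junction list mean was -0.09, 0.46 and 0.48 and then -0.39, -0.09 and -0.38. E15.5 replicate 1 was the lowest E15.5 array for 13 of 14 corneal, 12 of 14 basal and 28 of 30 junction genes, the array that was highest for 34 of 42 muscle and 17 of 19 pigment genes. The difference between E15.5 replicates 2 or 3 and replicate 1 in the corneal list was therefore larger than that between replicate 1 and any E17.5 array. With the muscle list mean as a covariate over the 21 cornea arrays the medians moved from -0.45 to -0.05 for corneal, from -0.32 to -0.20 for basal, from -0.58 to -0.40 for junction, from -0.43 to -0.19 for suprabasal genes and from -0.38 to -0.14 for transcription factors. Epcam and Capns2 changed by -1.87 and -2.14 in that fit and were not called (adjusted p = 0.122 for each, limma). The part that other cell types have in the epithelial values was not tested. The covariate holds muscle genes alone, and within E15.5 it ran opposite to the epithelial lists, so that fit cannot measure that part.

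With age, the called epithelial genes did not run in parallel. Csta1 had means of 4.92, 9.64 and 8.28 at the 3 embryonic ages and then of 8.65, 9.12, 9.87 and 11.61 from P3 to P28, and Capns2 of 6.61, 9.84 and 8.23 and then of 8.71, 9.23, 9.23 and 10.68. Both were thus far above E14.5 at E17.5 and highest at P28. Epcam had 10.30, 10.63 and 9.19 and then 9.56, 10.76, 10.61 and 10.71, so that its lowest mean was at E17.5. Bcl6 had 6.72, 9.66 and 8.63 and then 7.49, 8.00, 8.39 and 9.30, with its highest mean at E15.5.

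Stromal genes showed no shared shift. Of 14 corneal stroma genes none was called, and the median was -0.10 with 6 above 0 and 8 below. At an unadjusted p under 0.05 in limma 4 were higher and 0 lower, beside 6.64% and 4.46% of all genes. Keratocan, given above, changed by -0.22 (95% interval -1.29 to 0.85). Lumican (Lum), the other main keratan sulfate proteoglycan of the stroma, stood at 12.81, 12.85 and 13.13 and then at 12.56, 12.48 and 12.55, and its ages did not overlap (adjusted p = 0.85, limma). Fibromodulin (Fmod), of the same family, stood at 10.15, 8.98 and 9.18 and then at 10.46, 10.78 and 10.79 (change 1.24, adjusted p = 0.17, limma), upward with no overlap. Without E15.5 replicate 1 the fit called 2 stroma members. The collagen gene Col1a1 stood at 12.47, 12.60 and 12.79 and then at 12.23, 12.98 and 12.27 (change -0.13). Of 30 matrix genes none was called (2 higher at an unadjusted p under 0.05 in limma). No member of the lens list (22 genes), the immune list (20) or the list of corneal endothelium and neural crest (16) was called either. At an unadjusted p under 0.05 in limma the lens list had 0 members and the immune list 2 lower. The list of corneal endothelium and neural crest had 4 higher and 1 lower. Of 9 measured erythroid genes, E17.5 replicate 2 was the lowest E17.5 array in 6. The heme synthesis gene Alas2 stood at 9.55, 8.52 and 8.47 and then at 10.84, 8.97 and 10.60 (adjusted p = 0.0987, limma). The only called member was the transferrin receptor Tfrc, which takes up iron in many dividing cells too, at 8.06, 7.73 and 7.79 and then at 9.31, 9.20 and 9.04 (change 1.32, adjusted p = 0.0108, limma), with close E17.5 arrays. It was called in 4 of the 6 fits with 1 array left out, not without E15.5 replicates 2 or 3.

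**Figure D5:**
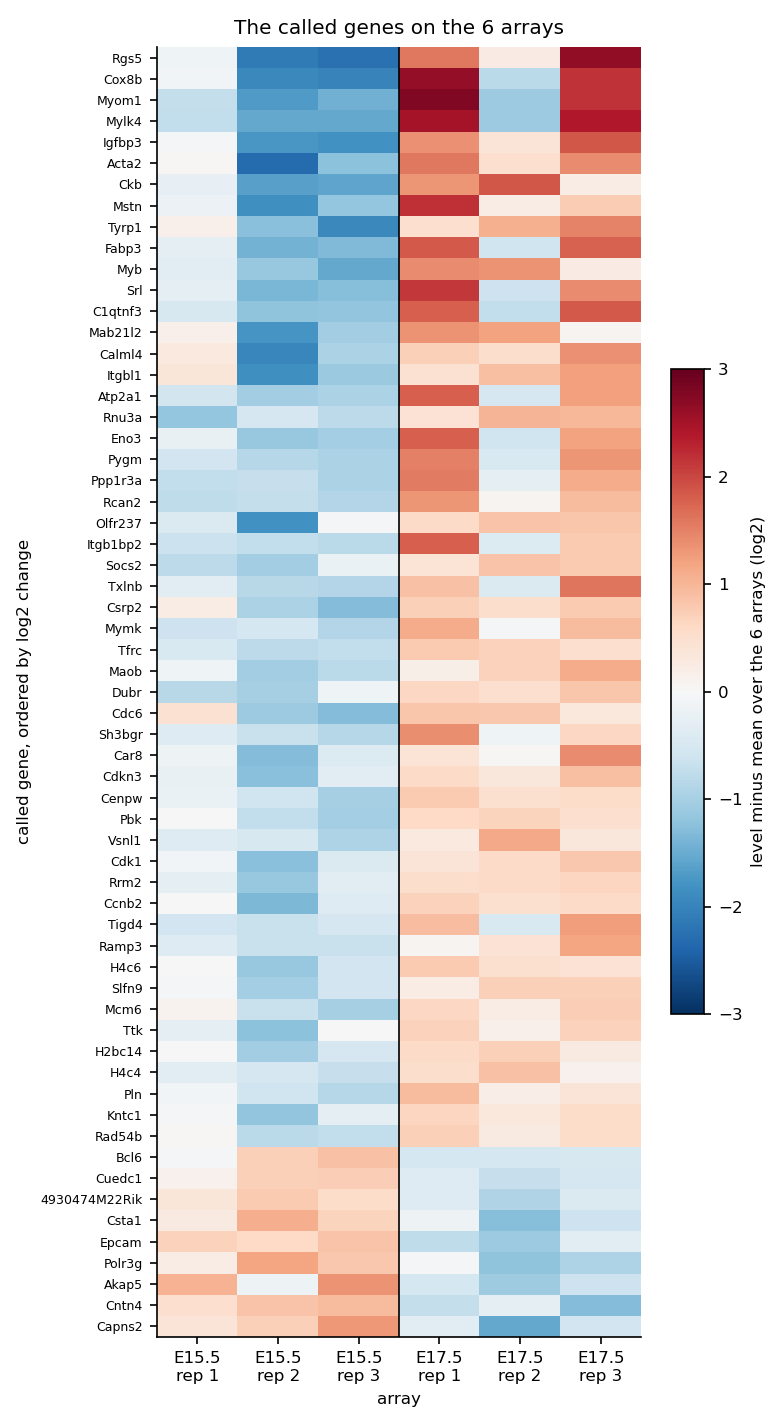
Level of each called gene (rows, ordered by change) on each of the 6 arrays (columns), minus the gene's mean over the 6 arrays, in log2 units by colour. The muscle genes near the top are pale or blue on E17.5 replicate 2, and E15.5 replicate 1 was the highest E15.5 array in 43 of the 52 genes called higher.

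The same arrays stood at the edge of their age in most called genes. Of the 52 genes called higher, E15.5 replicate 1 was the highest E15.5 array in 43 (82.7%, against 31.1% of all genes) and E17.5 replicate 2 the lowest E17.5 array in 32 (61.5%, against 30.1%). Of the 9 called lower, E17.5 replicate 2 was the lowest E17.5 array in 7. One gene, Rcan2, was called in all 6 fits with 1 array left out and in the fit of the 21 cornea arrays. Rcan2, a regulator of the phosphatase calcineurin, stood at 7.43, 7.48 and 7.29 at E15.5 and at 9.52, 8.25 and 9.12 at E17.5, a change of 1.57 with a standard error of 0.21 (2.96-fold, 95% interval 1.14 to 1.99, adjusted p = 0.00262, limma). Its level too was lowest of the E17.5 arrays on replicate 2. Over the ages its means were 7.88, 7.40 and 8.96 and then 8.11, 7.42, 7.36 and 7.22, highest at E17.5. With the muscle list mean as a covariate its change was 1.06 and it was not called (adjusted p = 0.122, limma).

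The remaining called genes had no place in these groups. The signalling inhibitor Socs2, of the growth hormone pathway, stood at 8.15, 7.88 and 8.73 and then at 9.35, 9.78 and 9.72 (change 1.36, adjusted p = 0.0114, limma) and was called in 5 of the 6 fits. Its 3 E17.5 arrays were close together and replicate 2 was the highest of them. Brain creatine kinase (Ckb) stood at 10.13, 8.75 and 8.80 and then at 11.71, 12.24 and 10.60, with E17.5 replicate 3 lowest as in the neural genes. The transcription factor Myb stood at 7.41, 6.63 and 6.22 and then at 9.18, 9.11 and 8.01 and also had E17.5 replicate 3 lowest. Itgbl1, an integrin-like protein, and Vsnl1, a neuronal calcium sensor, rose by 1.72 and 1.18 and, unlike Rcan2, stayed high afterwards. Itgbl1 had means of 7.88 and 9.60 at E15.5 and E17.5 and of 9.80 to 10.71 from P3 to P28, and Vsnl1 of 8.09 and 9.27 and then of 9.82 to 10.78. The remaining genes called higher were Mab21l2, Calml4, Olfr237, Csrp2, Maob, Dubr, Car8, Tigd4 and Slfn9, with changes of 1.11 to 1.76, and the small nucleolar RNA gene Rnu3a, which was called in none of the 6 fits with 1 array left out.

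Among the genes called lower, Akap5, which anchors protein kinase A, stood at 11.38, 10.19 and 11.69 at E15.5 and at 9.81, 9.29 and 9.73 at E17.5. It fell by 1.48 on the log2 scale (2.79-fold) with a standard error of 0.23 (adjusted p = 0.0108, limma), was called in 5 of 6 fits, and with the muscle list mean as a covariate fell by 2.00 (adjusted p = 0.0184, limma). Polr3g, a subunit of RNA polymerase III, stood at 9.17, 10.15 and 9.76 and then at 8.90, 7.75 and 8.02 (adjusted p = 0.0108, limma). The neural adhesion gene Cntn4 stood at 9.09, 9.43 and 9.52 and then at 7.86, 8.31 and 7.28 (adjusted p = 0.0493, limma), and Cuedc1 at 8.88, 9.47 and 9.49 and then at 8.38, 8.07 and 8.26 (adjusted p = 0.0108, limma). All 9 genes called lower, including 4930474M22Rik, had no overlap between the ages.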

How the data were processed

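Total RNA was hybridised to Affymetrix Gene ST arrays. The authors deposited linear intensity values per probe set, summarised (per the submitters' processing notes) by PLIER 2.0, a part of Affymetrix Expression Console 1.1.1. The sources used here do not give any normalization between arrays. Of 35556 probe sets the 21789 annotated with a single gene were used, not the 1621 with several or the 12146 unnamed ones, with the brightest probe set per gene. Symbols came from the platform annotation and matched the RefSeq table (GRCm38.p6) for 99.9%. Intensities were quantile-normalized over 27 arrays as log2(value + 16) and fitted with limma 3.58.1 (R 4.3.3, lmFit and eBayes, 9 groups, two-sided, Benjamini-Hochberg over 19938 genes). Simulated data with noise independent between genes and arrays served to test the procedure. Shifts shared by many genes of 1 array, as seen here, were not simulated. With 3 arrays against 3, an exact permutation test cannot go below p = 0.1, so none was used. Arrays limit precision by their number. Every called gene could be named, along with a fixed set of marker genes and up to 6 uncalled members of each list with the largest changes. Myh2, Des, Tcap, Tnni1, Ttn, Kdr, Erg, Ecscr, Tyms, Birc5, Ccna2, Dmkn and the photoreceptor genes were named after their values were seen. The members and lists were chosen with earlier results of these data known. Lists are described by counts and medians. Promoter windows were matched by symbol.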

Additional observations from a re-analysis of the deposited data

How the results depend on the processing

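The number of called genes (61; 52 higher and 9 lower) depended on which arrays set the spread. It was 35 (29 higher) with a common median per array, 1 (1 higher, 0 lower) with the 21 cornea arrays, 0 with the 6 arrays alone (0 higher, 0 lower in limma, with 228 past 2-fold before p-values were adjusted), 2 (0 higher, 2 lower) with the muscle list mean as covariate, and 105 (88 higher, 17 lower) without the fold limit. As deposited 30 were higher, with a pseudocount of 1 there were 5 lower, and among genes above the median 15 lower. Leaving out single arrays gave 3 to 298 in all, 1 to 255 higher and 0 to 43 lower; 60 of the 61 genes were among the 298. An alternative chosen after seeing the data, quantile normalization of the cornea arrays alone, gave 1 (1 higher, 0 lower). Replicate numbers did not pair the arrays, as deviations of equal numbers correlated at 0.16, 0.25 and -0.11, and a replicate block gave 145 genes (131 higher, 14 lower), 61 of them shared. None of the 61 genes changed direction under any alternative, while titin, not among them, was 2.04 here and called at -1.12 with the muscle covariate. The medians of the muscle, pericyte, vessel, pigment, retina, neuron, cell cycle, corneal, basal, junction, suprabasal and transcription factor lists kept their sign in every alternative run. The causes were not tested. Arrays carry no count depth, and dim genes near level 4 have compressed changes.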
